A study of Mus musculus with 6 samples.

Results

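*Acot2*, *Acot3* and *Acot4* are neighbouring paralogs on mouse chromosome 12 that encode type I acyl-CoA thioesterases, and they make up 3 of the 257 genes in the deposited RNA-seq table analysed here. They were taken from the table by symbol, and were selected on their lower counts in TBG-*Zrsr1* than in TBG-Vec mice. Their group differences are therefore a description. No p-value is given for them, and where they are counted as called, the call rests on the values that chose them and supports nothing. The study asked which liver genes change when hepatocytes carry extra *Zrsr1*, a gene for a splicing factor, during a high-fat diet (HFD). Wild-type C57BL/6J mice received AAV through the tail vein, and the thyroxine-binding globulin (TBG) promoter of the vector limited its insert to hepatocytes. TBG-Vec mice carried the AAV without *Zrsr1*, TBG-*Zrsr1* mice carried the AAV with it, and all 6 mice ate HFD for 13 weeks. Each group had 3 mice, and the replicate numbers name separate animals. Age is not given in the sources used here. Sex is not stated outright, but the study weighed epididymal fat, a depot of males, in mice of both groups.

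Acyl-CoA thioesterases split activated fatty acids into the free acid and coenzyme A, which sets how much acyl-CoA is open to oxidation, elongation or storage. ACOT2 works in the mitochondrial matrix on long-chain acyl-CoA, ACOT3 works in peroxisomes on medium- and long-chain acyl-CoA, and ACOT4 is the peroxisomal succinyl-CoA thioesterase. In rodent liver these genes are known as targets of the fatty acid receptor PPARα and respond to fasting.

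The table holds whole-number counts for each gene in each mouse, and whether they were scaled or rounded before deposit is not given in the sources used here. Its 257 genes summed to 264103, 283414 and 281277 counts in TBG-Vec mice 1 to 3 and to 231429, 174448 and 227278 counts in TBG-*Zrsr1* mice 1 to 3. These sums cover the listed genes only, and library depth is unknown, which is why counts are given without rescaling. *Zrsr1* itself was counted 194, 197 and 202 times in the TBG-Vec mice and 4383, 4479 and 4405 times in the TBG-*Zrsr1* mice, so extra *Zrsr1* was seen in each library labelled with it and in no TBG-Vec library. Of 10 hepatocyte markers, 0 were among the listed genes, so the tissue label could not be checked on them. In bulk liver RNA, fewer cells of a type and less RNA per cell cannot be told apart.

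*Acot2*, the mitochondrial member, had 187, 202 and 235 counts in TBG-Vec mice 1 to 3, or 208 ± 24.6 (SD, n = 3). In TBG-*Zrsr1* mice 1 to 3 it had 136, 58 and 129 counts, or 108 ± 43.2 (SD, n = 3). All 3 TBG-*Zrsr1* mice lay below all 3 TBG-Vec mice, and TBG-*Zrsr1* mouse 2 stood apart from the others of its group. Its 58 counts have an exact 95% Poisson interval of 44.0 to 75.0, below that of mouse 3 (108 to 153). Such intervals assume unscaled counts and cover counting error only.

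*Acot3*, for the peroxisomal enzyme of medium and long chains, had 835, 655 and 801 counts in TBG-Vec mice 1 to 3, or 764 ± 95.6 (SD, n = 3). In TBG-*Zrsr1* mice 1 to 3 the counts were 319, 131 and 464, or 305 ± 167 (SD, n = 3). The groups did not overlap, and the TBG-*Zrsr1* mice differed widely among themselves, with the highest count 3.54 times the lowest against 1.27 times in TBG-Vec mice. The exact 95% Poisson intervals of the 3 TBG-*Zrsr1* mice, 285 to 356, 110 to 155 and 423 to 508 counts, were separate from each other. If the values are unscaled counts, this spread exceeded counting error. The part of library depth in it was not tested.

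*Acot4*, for the succinyl-CoA thioesterase, had 683, 650 and 699 counts in TBG-Vec mice 1 to 3, or 677 ± 25.0 (SD, n = 3). In TBG-*Zrsr1* mice 1 to 3 it had 423, 230 and 552 counts, or 402 ± 162 (SD, n = 3). Again the groups did not overlap and mouse 2 was lowest. The coefficient of variation of *Acot4* was 3.69% in TBG-Vec mice, where counting error alone gives 3.84%, and 40.3% in TBG-*Zrsr1* mice. In TBG-Vec mice *Acot2* had 11.8% against 6.93% from counting and *Acot3* 12.5% against 3.62%. These values for counting error also assume unscaled counts. A coefficient of variation over 3 mice is imprecise, so the paralogs are not ranked by it.

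**Figure D1:**
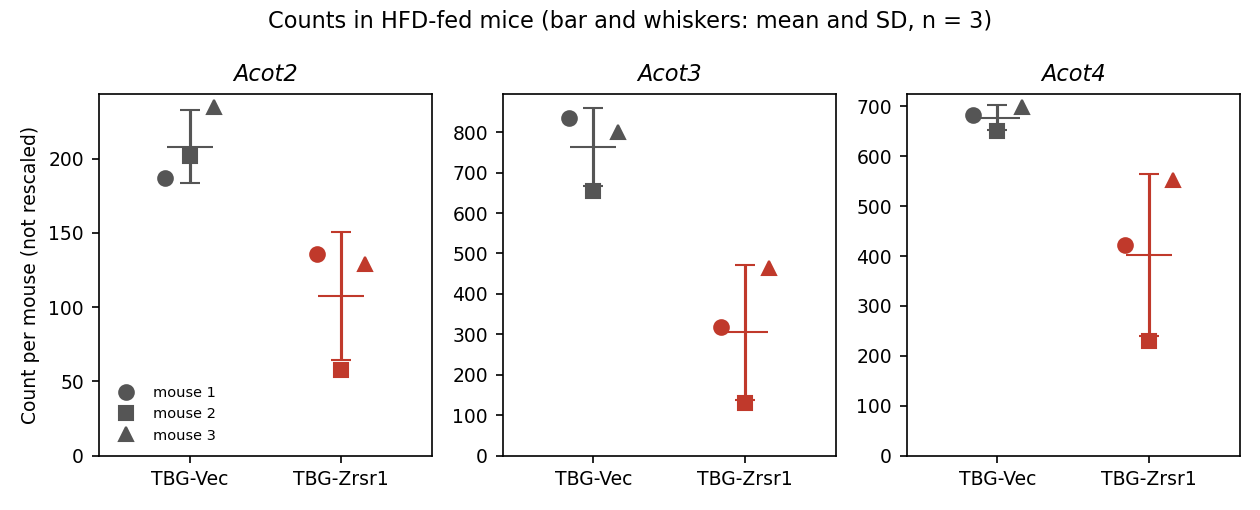
Counts of *Acot2*, *Acot3* and *Acot4* (vertical axes, not rescaled) in each TBG-Vec and TBG-*Zrsr1* mouse, with bars and whiskers for the mean and SD (n = 3). The 3 TBG-*Zrsr1* mice sit below the 3 TBG-Vec mice in each gene, and mouse 2 is the lowest, at 58, 131 and 230 counts.

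Set against the TBG-Vec mean, *Acot3* was lowest at 39.9%, *Acot2* stood at 51.8% and *Acot4* at 59.3%. In the edgeR quasi-likelihood fit over the whole table the log2 fold changes were −1.33 (standard error 0.33) for *Acot3*, −0.95 (0.25) for *Acot2* and −0.75 (0.25) for *Acot4*. The differences between these values were smaller than the sums of their standard errors, so this scale alone does not rank the paralogs. At a Benjamini-Hochberg threshold of 0.05 and more than a 1.5-fold change, all 3 were called lower, where 42% of the 257 listed genes were called lower and 18.7% higher. Counts of the groups were fully separate in these 3 genes, as in 99.2% of the table. Since the table was itself selected on this comparison (all 257 genes passed an adjusted p of 0.05), nothing is read from these counts.

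Among the 257 genes ordered by log2 fold change from the most negative, *Acot3* came at place 4, *Acot2* at place 21 and *Acot4* at place 45. The median of all listed genes was −0.54, and the paralogs lay at −0.79, −0.41 and −0.22 log2 units from it. Both measures depended on single TBG-*Zrsr1* mice, in both directions. Without mouse 2 the places were 13, 51 and 132 and the distances −0.49, −0.17 and 0.0023, so *Acot4* lay at the median of the table. Without mouse 3 the places were 3, 17 and 24 and the distances −1.21, −0.55 and −0.50. Rescaling over the listed genes moved that median by 0.39 to 0.52, and *Acot3*, *Acot2* and *Acot4* then had log2 fold changes of −0.89, −0.50 and −0.31 with the size factors of DESeq2 in the edgeR fit. Under that scaling 13 genes of the table were called lower and 65 higher, against 108 and 48 without rescaling, and *Acot3* was the only paralog called. With TMM the call of *Acot3* was lost as well, at −0.84. All 3 log2 fold changes were negative under each of the 4 rescalings.

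Ratios of counts within a mouse do not depend on depth or scaling, and they separated *Acot3* from *Acot4*. The log2 ratio of *Acot3* to *Acot4* counts was 0.29, 0.01 and 0.20 in TBG-Vec mice 1 to 3 and −0.41, −0.81 and −0.25 in TBG-*Zrsr1* mice 1 to 3. All 3 TBG-*Zrsr1* mice lay below all 3 TBG-Vec mice, with group means of −0.49 ± 0.29 and 0.17 ± 0.14 (SD, n = 3 each). The difference of −0.65 means that *Acot3* counts per *Acot4* count were 0.636 times those in TBG-Vec mice. It ranged from −0.77 to −0.49 when each mouse was left out in turn, and it was not tested because the genes were chosen on this comparison.

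The other ratios overlapped between groups. For *Acot3* to *Acot2* the log2 ratio was 2.15, 1.69 and 1.76 in TBG-Vec mice and 1.22, 1.16 and 1.84 in TBG-*Zrsr1* mice, a difference of −0.46 in which mouse 3 lay within the range of the controls. For *Acot4* to *Acot2* the mean was 1.70 ± 0.15 in TBG-Vec mice and 1.90 ± 0.24 with *Zrsr1* (SD, n = 3 each), a difference of 0.19 that is smaller than the SD of the TBG-*Zrsr1* group. The mitochondrial gene and the peroxisomal succinyl-CoA thioesterase gene therefore could not be separated in how far they were lower.

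The summed count of the 3 genes was 1705, 1507 and 1735 in TBG-Vec mice and 878, 419 and 1145 in TBG-*Zrsr1* mice, 49.4% of the TBG-Vec mean. *Acot3* made up 49.0%, 43.5% and 46.2% of this sum in TBG-Vec mice and 36.3%, 31.3% and 40.5% in TBG-*Zrsr1* mice. The share of *Acot4* was 40.1%, 43.1% and 40.3% in TBG-Vec mice and 48.2%, 54.9% and 48.2% in TBG-*Zrsr1* mice, without overlap between groups. The Wilson 95% interval of the *Acot3* share in TBG-*Zrsr1* mouse 3, 37.7% to 43.4%, overlaps that of TBG-Vec mouse 2, 41.0% to 46.0%, so between these 2 mice the shift was within counting error. The share of *Acot2* was 12.6 ± 1.45% in TBG-Vec mice and 13.5 ± 2.13% with *Zrsr1* (SD, n = 3 each).

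**Figure D2:**
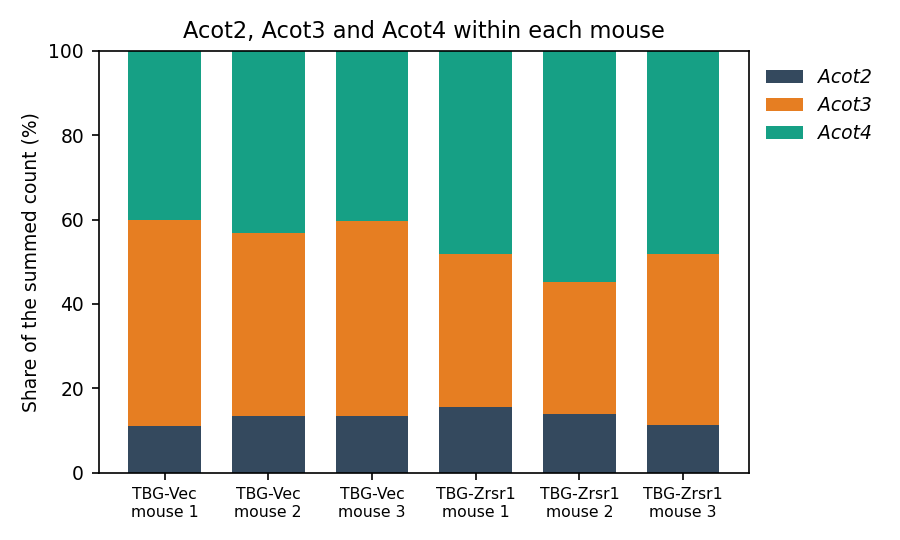
Share of *Acot2*, *Acot3* and *Acot4* (stacked bars, percent) in their summed count in each mouse. *Acot3* holds 43.5% to 49.0% in TBG-Vec mice and 31.3% to 40.5% in TBG-*Zrsr1* mice, and *Acot4* holds more in each TBG-*Zrsr1* mouse than in any TBG-Vec mouse.

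The order of the mice was shared in part. Within TBG-*Zrsr1* mice, *Acot3* and *Acot4* both ran from mouse 3 to mouse 1 to mouse 2, an order found in 71 of the 257 listed genes, while *Acot2* was slightly higher in mouse 1 than in mouse 3. Within TBG-Vec mice the 3 genes had 3 different orders. *Acot3* was highest in mouse 1, *Acot2* and *Acot4* in mouse 3.

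TBG-*Zrsr1* mouse 2 was lowest in each paralog, and by more than in most listed genes. Its count was 33.5% of the mean of mice 1 and 3 for *Acot3*, 43.8% for *Acot2* and 47.2% for *Acot4*. Over the table the median gene stood at 85.7%, and the summed counts at 76.1%. Ordered by this measure from the lowest, *Acot3*, *Acot2* and *Acot4* took places 1, 5 and 6 of 257. Mouse 2 was the lowest TBG-*Zrsr1* mouse in 165 of all 257 genes, which were 146 of the 192 with lower and 19 of the 65 with higher counts. It was the highest in 27 of those 65, and its *Zrsr1* count, 4479, was the highest of the group. The part of library depth in this was not tested. Without mouse 2 the log2 fold changes were −0.96 for *Acot3*, −0.65 for *Acot2* and −0.47 for *Acot4*, the last under a 1.5-fold change, and 67 genes of the table were called lower in place of 108.

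**Figure D3:**
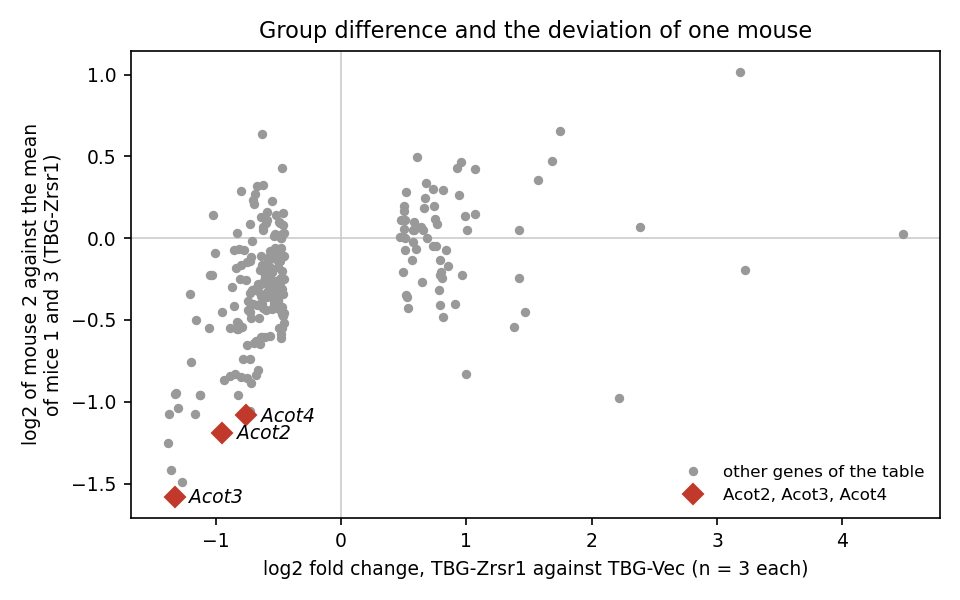
Each point is 1 of the 257 listed genes. The horizontal axis gives the log2 fold change between TBG-*Zrsr1* and TBG-Vec mice (n = 3 each), and the vertical axis the log2 ratio of TBG-*Zrsr1* mouse 2 to the mean of mice 1 and 3. *Acot3*, *Acot2* and *Acot4* (diamonds) lie at the lower edge, at −1.58, −1.19 and −1.08 on the vertical axis.

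Levels of different genes were compared per kilobase of transcript. With all annotated exons merged (3983, 7391 and 2403 bases), TBG-Vec mice had 192 ± 24.0 counts per kilobase of *Acot3*, 91.6 ± 3.38 of *Acot4* and 86.6 ± 10.2 of *Acot2* (SD, n = 3 each). *Acot3* stood above the others in each control mouse, whereas *Acot4* and *Acot2* did not differ beyond their spread. In TBG-*Zrsr1* mice the levels were 76.5 ± 41.9, 54.3 ± 21.9 and 44.8 ± 18.0 counts per kilobase in the same order (SD, n = 3 each), and these ranges overlapped. In each TBG-*Zrsr1* mouse *Acot3* was still the highest on this scale and *Acot2* the lowest.

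Much of the *Acot4* transcript is not coding, and the order depends on the length used. Per kilobase of coding sequence (1263 bases for *Acot3* and *Acot4*, 1359 for *Acot2*), a length chosen after seeing the data, TBG-Vec mice had 605 ± 75.7 counts of *Acot3*, 536 ± 19.8 of *Acot4* and 153 ± 18.1 of *Acot2* (SD, n = 3 each). *Acot3* was then still above *Acot4* in each control, at 661 against 541, 519 against 515 and 634 against 553 in mice 1 to 3. In TBG-*Zrsr1* mice *Acot4* came first, at 318 ± 128, ahead of *Acot3* at 241 ± 132 and *Acot2* at 79.2 ± 31.8 counts per kilobase (SD, n = 3 each). *Acot2* was the lowest of the 3 group means on both lengths. The counts were of whole genes and not limited to coding bases. With equal coding lengths, the order of *Acot3* and *Acot4* on this scale is that of their counts.

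In GENCODE M39 on GRCm39 the genes lie on the plus strand of chromosome 12, *Acot2* at 84034428 to 84040647, *Acot4* at 84085081 to 84095375 and *Acot3* at 84098918 to 84107176. *Acot4* ends 3542 bp before *Acot3* starts, and *Acot1* lies between *Acot2* and *Acot4*, with *Acot5* and *Acot6* beyond *Acot3*. Counts of *Acot1*, *Acot5* and *Acot6* were not analysed here. Of the 233 listed genes located by symbol, 14 are on this chromosome, and the nearest outside the cluster is *Tmed8*, 3105835 bp away. The paralogs were thus a separate group of neighbours in the table.

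**Figure D4:**
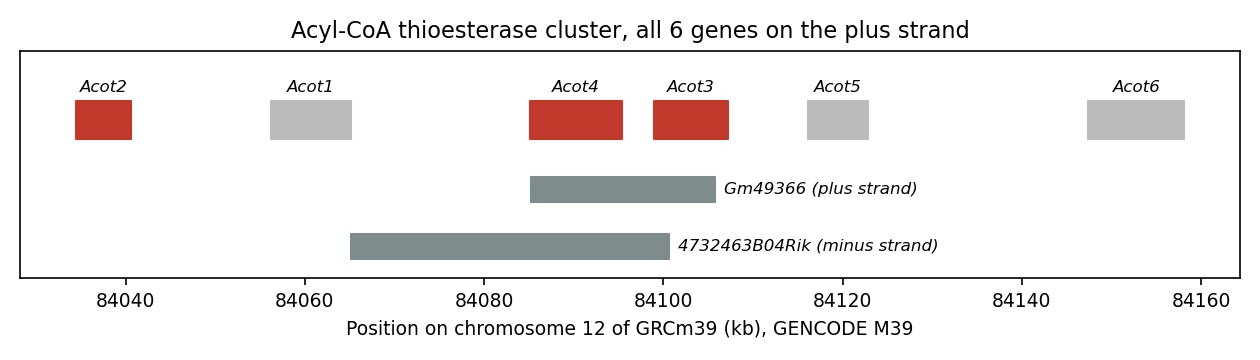
Map of the cluster on chromosome 12 of GRCm39 (horizontal axis, kb) with *Acot2*, *Acot4* and *Acot3* in red and the other thioesterase genes in light grey. The dark bars are *Gm49366*, a readthrough gene on the plus strand, and *4732463B04Rik*, on the minus strand, which span parts of *Acot4* and *Acot3*.

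Annotated neighbours overlap exons of the peroxisomal genes. The readthrough gene *Gm49366* shares 809 exon bases with *Acot3* (20.3% of its merged exons) and 457 with *Acot4* (6.18%). The antisense lncRNA *4732463B04Rik* shares 312 bases with *Acot3* (7.83%) and 1115 with *Acot4* (15.1%), and no such overlap was found for *Acot2*. Whether counting used the strand is not given in the sources used here, so reads of the antisense gene cannot be told apart from those of *Acot3* and *Acot4* at these bases.

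How far reads can be shared between the paralogs was measured on the canonical transcripts. Of all 100-base windows of *Acot2*, 15.6% occur without a mismatch in another transcript of the cluster, each of them in *Acot1*. For *Acot3* the share was 5.71% and for *Acot4* 0.356%. Between *Acot2* and either peroxisomal gene no 100-base window was shared, and between *Acot3* and *Acot4* there were 21. Reads of this length therefore tell the 3 members apart from each other over nearly all of their length. Reads from 15.6% of the *Acot2* windows fit *Acot1* as well, and those from 5.71% of the *Acot3* windows fit another gene of the cluster. For *Acot3*, 104 windows were shared with *Acot1*, 104 with *Acot5* and 60 with *Acot6*. Whether such reads are in the *Acot2* and *Acot3* counts depends on the counting tool, which was not resolved.

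The proteins translated from these transcripts have 453 residues for ACOT2 and 421 each for ACOT3 and ACOT4. ACOT2 was 93.4% identical to ACOT1, the cytosolic paralog, and carries 41 additional residues at its start, where its mitochondrial targeting sequence lies. It was 77.2% identical to ACOT3 and 66.3% to ACOT4. The peroxisomal pair was no closer to each other, at 65.1%, and ACOT3 was nearest to ACOT5, at 81.2%. The shared compartment of ACOT3 and ACOT4 thus went with no closer sequence.

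The longest coding stretch that *Acot3* and *Acot4* share in full shows how close the paralogs are in places. It is 111 bases long, in exon 2 of *Acot3* (chr12:84100453-84100563) and exon 1 of *Acot4* (chr12:84085479-84085589), and *Acot2* differs from it at 2 bases in its exon 1 (chr12:84034993-84035103). Sequences are from GENCODE M39 on GRCm39, plus strand, and capitals mark the differing bases.
Acot3 and Acot4: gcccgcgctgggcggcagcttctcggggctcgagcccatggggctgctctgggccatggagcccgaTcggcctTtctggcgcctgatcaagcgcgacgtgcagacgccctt
Acot2: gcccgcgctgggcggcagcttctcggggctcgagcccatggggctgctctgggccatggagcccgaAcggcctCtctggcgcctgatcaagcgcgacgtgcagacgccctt

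The longest run that *Acot2* shares with *Acot1* is 273 coding bases in exon 3 of *Acot2* (chr12:84039502-84039774), at chr12:84063780-84064052 in *Acot1*. It is printed from the same source because reads inside it fit both genes, with no base to mark.
Acot2 and Acot1: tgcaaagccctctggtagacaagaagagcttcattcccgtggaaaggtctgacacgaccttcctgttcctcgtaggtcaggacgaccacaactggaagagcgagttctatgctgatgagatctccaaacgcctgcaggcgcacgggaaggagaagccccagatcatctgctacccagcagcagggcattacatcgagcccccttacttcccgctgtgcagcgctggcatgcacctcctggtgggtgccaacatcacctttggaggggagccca

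Since the paralogs were lower together, their promoters were searched for AGGTCANAGGTCA, the direct repeat bound by PPARα with RXR, on both strands of the 250 bases before the start given by RefSeq on GRCm38.p6. No promoter held all 12 letters. The closest match had 10 letters in *Acot4*, with 3.24% of 32841 promoters at least as close, 9 in *Acot2* (21.3%) and 8 in *Acot3* (74.5%). The matches are at chr12:83987803-83987815 for *Acot2* (plus strand) and at chr12:84052051-84052063 and chr12:84038366-84038378 for *Acot3* and *Acot4* (minus strand). Those of *Acot2* and *Acot4* lie inside GENCODE transcripts, which begin 207 and 72 bases before the RefSeq starts of these genes. The matches are printed from the plus strand with the matching letters in capitals, and a match is a description of letters only.
Acot2: AGcaCAcAGcTCA
Acot3: TGcaCagTcACCT
Acot4: TGACCTtTGgCCg

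The direct repeat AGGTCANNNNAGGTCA, of the type bound by LXR with RXR, had 4 mismatches at best in each gene (70.6% of promoters at least as close), and 3 from the second *Acot3* start (18.5%). Its half-site AGGTCA was whole in *Acot4* (14.0% of promoters), inside the match printed above, and in neither of the others. *Acot4* also held CACGTG, the E-box, without a mismatch (6.02% of promoters hold it on either strand), at bases −66 to −61, also inside its GENCODE transcripts, and TATAAA (12.4%). Neither the E-box nor TATAAA was found in *Acot2* or *Acot3*. The *Acot3* promoter (chr12:84051894-84052143, the first of its starts) is printed with its closest direct-repeat match in capitals. The *Acot4* stretch (chr12:84038129-84038306) ends where its GENCODE transcripts begin and has TATAAA in capitals. Both are from RefSeq on GRCm38.p6, plus strand, and are shown for the pair of genes whose count ratio differed between groups.
Acot3: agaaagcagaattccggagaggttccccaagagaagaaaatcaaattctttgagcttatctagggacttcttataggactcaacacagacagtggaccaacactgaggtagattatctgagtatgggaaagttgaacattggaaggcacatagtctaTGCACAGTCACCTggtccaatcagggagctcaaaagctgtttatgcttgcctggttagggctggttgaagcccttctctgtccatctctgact
Acot4: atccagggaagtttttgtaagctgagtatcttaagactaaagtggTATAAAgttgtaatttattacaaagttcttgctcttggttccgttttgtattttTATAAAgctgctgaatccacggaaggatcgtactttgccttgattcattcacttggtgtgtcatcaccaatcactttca

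The other acyl-CoA thioesterase gene of the table was *Acot11*, whose product is of another structural family. Of a list of 19 such genes, 4 were in the table. *Acot11* had 110, 127 and 87 counts in TBG-Vec mice and 65, 63 and 79 in TBG-*Zrsr1* mice, a log2 fold change of −0.65, and it was called lower. Mouse 2 was only slightly the lowest, at 87.5% of the mean of mice 1 and 3, unlike in the cluster. Measured against *Acot11* within each mouse, the log2 difference between groups was −0.87 for *Acot3*, −0.40 for *Acot2* and −0.21 for *Acot4*, and each of these ratios overlapped between groups.

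Other genes of fatty acid metabolism were counted from lists and not tested as sets. Outside the cluster, 13 listed genes belonged to them, of which 13 had lower counts and 7 were called lower, with a median log2 fold change of −0.64. Of all 257 listed genes, 192 had lower counts (74.7%), 42% were called lower and the median was −0.54, and nothing particular to the lists is read from these counts. Peroxisomal oxidation had 2 of 25 genes in the table (median −0.62), namely *Acaa1b* (−0.67, called), for a thiolase, and *Ehhadh* (−0.56, not called), for the bifunctional enzyme. Other PPARα targets had 5 of 32 (median −0.65, 3 called lower). Synthesis and desaturation had 6 of 35 (median −0.57, 3 called lower). Mitochondrial oxidation (21 genes), microsomal omega-oxidation (12) and acyl-CoA synthetases with uptake (20) had 0 in the table, and their genes were not analysed here.

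*Acot3*, chosen for its lower counts, had a more negative log2 fold change (−1.33) than each of these 13 genes. The nearest was *Pdk4* (log2 fold change −1.16), which encodes the kinase that restrains pyruvate oxidation. It had 212, 194 and 155 counts in TBG-Vec mice and 63, 48 and 139 in TBG-*Zrsr1* mice. The gap between *Pdk4* and *Acot3* is smaller than the standard error of *Acot3*, so these genes are not ranked. *Me1*, for malic enzyme, had −0.89, *Scd1*, for stearoyl-CoA desaturase, −0.68, and *Plin2*, for a lipid droplet coat protein, −0.65. Mouse 2 stood at 47.5% of the mean of mice 1 and 3 in *Pdk4* and at 55.8% in *Me1*, but at 75.8% in *Plin2* and 86.7% in *Ehhadh*. The low values of mouse 2 in the cluster were thus matched in some of these genes and not in others.

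By profile over the 6 mice (log2 of the count plus 1, less the TBG-Vec mean), the 5 genes nearest to the mean of the 3 paralogs were *Tlr12*, *Wfdc2*, *Mmd2*, *A330041J22Rik* and *Cntnap1*. Their root mean square differences from it were 0.19, 0.22, 0.23, 0.24 and 0.24 log2 units, where the median of the other listed genes was 0.58 and the paralogs themselves lay at 0.14 (*Acot2*), 0.21 (*Acot4*) and 0.30 (*Acot3*). None of these 5 genes is in the fatty acid lists. *Tlr12*, for a Toll-like receptor, had 191, 231 and 207 counts in TBG-Vec mice and 116, 59 and 113 in TBG-*Zrsr1* mice. Mouse 2 was the lowest, at 51.5% of the mean of mice 1 and 3, a smaller drop than in each paralog. The choice by profile favours genes with a low mouse 2, so this is no separate observation.

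In the order of log2 fold changes, *Acot3* stood between *Pnldc1* (−1.38), *Col1a1* (−1.37) and *Raet1d* (−1.35) before it and *Gm31522* (−1.32), *Mmd2* (−1.32) and *Gm30692* (−1.30) after it. These neighbours differ from *Acot3* by far less than its standard error of 0.33. Their counts were lower than those of *Acot3*, with TBG-Vec means from 32.7 for *Gm31522* to 126 for *Col1a1*, so *Acot3* was the best counted gene among them.

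Markers of other liver cell types were looked up beside these results. Of 9 stellate cell or fibroblast markers, 2 were in the table, *Col1a1* and *Col3a1*, both called lower, with summed counts of 441, 550 and 659 in TBG-Vec mice and 356, 204 and 244 in TBG-*Zrsr1* mice. Of 7 adipocyte markers, 1 was in the table, *Cfd*, called higher, with 375, 607 and 100 counts in TBG-Vec mice and 2397, 1024 and 1626 in TBG-*Zrsr1* mice. Of the markers listed for Kupffer cells or macrophages (9), endothelial cells (7), cholangiocytes (5), neutrophils (5) and lymphocytes (7), 0 were in the table. These marker lists are not complete. *Cd163*, a macrophage gene outside them, had 102, 108 and 60 counts in TBG-Vec mice and 148, 133 and 183 in TBG-*Zrsr1* mice. It was called higher. In this table, selected on the same comparison, 42% of the 257 genes were called lower and 18.7% higher. Nothing about cell types is therefore read from these calls. The part of cell composition in the lower *Acot2*, *Acot3* and *Acot4* counts was not tested.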

How the data were processed

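The authors deposited 1 table of 257 genes with whole-number counts for each of the 6 mice. Its columns for the TBG-Vec mice carry the name GFP and were matched to the mice by library name and number. Per the paper's methods, reads were checked with FastQC, aligned to GRCm39 with HISAT2, counted with HTSeq and compared with DESeq2. The submitters' processing notes also name DESeq2 (1.4.5), but give Bowtie2, RSEM 1.3.1 and mm10. HTSeq by default leaves out reads that fit several genes and RSEM divides them, which bears on paralogs, and the conflict was not resolved. Annotation and scaling are not given in the sources used here. The authors' columns of the mean, fold change and p-value were not used.

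Counts were fitted with edgeR 4.0.16 (quasi-likelihood, R 4.3.3, equal library sizes, Benjamini-Hochberg over 257 genes), and standard errors are the absolute log2 fold change over the square root of F. Calls needed an adjusted p below 0.05 and more than a 1.5-fold change. The filter removed 0 genes. The fit was tested on simulated data. DESeq2 1.42.0 and limma 3.58.1 were alternatives, as were other scalings, filters and thresholds, the replicate block and each mouse left out. Intervals came from scipy 1.17.1 and protein alignments from Biopython 1.88.

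Members and lists were chosen with earlier results of these data known. Genes named are the 3 members, other thioesterase genes, list members (up to 6 per list), the 5 nearest profiles, the 3 genes on each side of *Acot3* in the order of log2 fold changes, and *Zrsr1*. Also named are *Tmed8*, the genes that overlap *Acot3* and *Acot4*, the cell markers in the table, and *Cd163*.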

Additional observations from a re-analysis of the deposited data

How the results depend on the processing

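All log2 fold changes of *Acot2*, *Acot3* and *Acot4* stayed negative under the 16 alternative settings. No filter, the adjusted p alone and the mean count of at least 50 repeat the main values. Where counts were not rescaled, groups without overlap fix the sign, so those settings do not test it. Scaling over the listed genes ended calls. *Acot2* had −0.50 with DESeq2's size factors in edgeR, −0.45 with TMM and −0.50 with the DESeq2 Wald test. With equal totals it had −0.59, still called but barely past the 1.5-fold threshold. *Acot3* had −0.84 with TMM and was not called there. *Acot4* had −0.31, −0.26 and −0.31 in those 3 fits and −0.40 with equal totals. Genes called lower numbered 13, 10 and 12 in those 3 fits and 17 with equal totals, with 65 called higher in each. These scalings take out a difference shared by the list, whatever its origin. With a mean count of at least 50, which tests fewer genes, 62 were lower and 30 higher, and with the adjusted p alone 192 were lower. For the rest of these changes the cause was not tested.

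Leaving out each mouse in turn gave −1.15 to −0.65 for *Acot2*, −1.76 to −0.96 for *Acot3* and −1.05 to −0.47 for *Acot4*, with 67 to 130 genes called lower and 44 to 53 higher. The value nearest 0 for each gene, and the 67, were those of the fit that left out TBG-*Zrsr1* mouse 2. With the replicate block the log2 fold changes were −1.01, −1.48 and −0.84, with 107 genes lower and 49 higher. The numbers name separate mice, and the deviations of same-numbered mice from their group means correlated at −0.107, 0.0311 and 0.0548.

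*Acot3* was more negative than *Acot2* and *Acot4* in each of these settings, some of which repeat the main values. With each mouse left out, the ratio differences ran from −0.77 to −0.49 for *Acot3* to *Acot4*, −0.68 to −0.32 for *Acot3* to *Acot2* and 0.10 to 0.32 for *Acot4* to *Acot2*, against within-group SDs (pooled over both groups) of 0.23, 0.32 and 0.20. Per kilobase in TBG-Vec mice, *Acot4* came to 108 counts on its longest transcript, and coding length, chosen after seeing the data, gave 153, 605 and 536 counts for *Acot2*, *Acot3* and *Acot4*. Shared windows made up 25.2%, 9.84% and 4.43% of the transcripts of *Acot2*, *Acot3* and *Acot4* at 50 bases and 9.27%, 3.54% and 0% at 150 bases, as longer windows meet more mismatches. The other 90 values kept their direction and, where there was one, their call, though the ratio difference of *Acot4* to *Acot2* varied by over 1.5 times, with 0.12 without TBG-Vec mouse 3, and 0.10 and 0.32 without TBG-*Zrsr1* mice 3 and 1. Library depth is unknown, and 3 mice a group limit each SD.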
